A study of Mus musculus with 18 samples.

Results

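The genes followed here in the prostate of Elac2 mutant mice are 10 of the 55469 in each deposited table, the heavy chain constant genes Ighm, Igha, Ighg1, Ighg2b, Ighg2c and Ighg3, the light chain constant genes Igkc, Iglc1 and Iglc2, and Jchain. They were selected on measured values of these data: in earlier results, a list of plasma and B cell genes was higher in A537T than in WT mice at 30 weeks of age. Values of A537T at 30 weeks are therefore given as a description with no p. The mice were male, on a background labelled C56NL/6N. WT mice were littermates matched by age with no Elac2 mutation, KO mice were homozygous for a prostate-specific deletion of exon 8 by Pb-Cre, a recombinase driven by the probasin promoter of prostate epithelium, and A537T mice carried the Ala537Thr substitution on both alleles in the whole body. At 10 and at 30 weeks, 3 mice of each genotype gave 1 library each from the ventral and lateral lobes, 18 libraries in 6 groups. WT libraries are numbered 10AF to 12AF at 10 weeks and 1AF to 3AF at 30 weeks, KO libraries 13AF to 15AF and 4AF to 6AF, and A537T libraries 16AF to 18AF and 7AF to 9AF.

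An antibody is built from paired heavy and light chains, and the heavy chain constant gene sets its isotype: IgM from Ighm, IgA from Igha, and the IgG subclasses from the Ighg genes. B cells start with IgM and can switch to a downstream constant gene, and plasma cells, their secreting descendants, hold very large amounts of constant region mRNA. Jchain joins IgM and IgA into polymers that the epithelial receptor encoded by Pigr carries across mucosal surfaces, glands of the male reproductive tract among them. In bulk tissue, fewer cells of a type and less RNA per cell cannot be told apart.

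The heavy chain members lie on the minus strand of chromosome 12 of GRCm38 and are read in the order Ighm (chr12:113418558-113422730), Ighg3 (chr12:113356224-113361232), Ighg1 (chr12:113325240-113330523), Ighg2b (chr12:113302965-113307933), Ighg2c (chr12:113285325-113288932) and Igha (chr12:113254830-113260236). Igkc lies on the plus strand of chromosome 6 (chr6:70726435-70726966), Iglc1 and Iglc2 on the minus strand of chromosome 16 (chr16:19061618-19062071 and chr16:19198396-19200351) and Jchain on the minus strand of chromosome 5 (chr5:88519809-88527891). The coding, exonic ends that only the secreted forms of Ighm (chr12:113420870-113420928) and Igha (chr12:113258771-113258829) use are shown because these tails are where J chain is joined, and both run over 59 bases in the transcripts of GENCODE M21, with the next-to-last codon, TGC for cysteine, in capitals.
Ighm: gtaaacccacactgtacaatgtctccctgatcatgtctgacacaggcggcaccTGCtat
Igha: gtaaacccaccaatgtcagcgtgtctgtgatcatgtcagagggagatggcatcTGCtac
Windows of 90 bases near the start of the constant exon of Iglc2 (chr16:19198761-19198850), Iglc3 (chr16:19065590-19065679) and Iglc1 (chr16:19061980-19062069) are shown because near-identical genes share reads, with capitals at the bases that differ from Iglc2.
Iglc2: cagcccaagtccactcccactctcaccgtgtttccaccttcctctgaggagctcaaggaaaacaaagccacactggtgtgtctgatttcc
Iglc3: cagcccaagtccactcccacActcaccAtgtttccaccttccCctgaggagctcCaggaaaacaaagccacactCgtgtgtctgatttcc
Iglc1: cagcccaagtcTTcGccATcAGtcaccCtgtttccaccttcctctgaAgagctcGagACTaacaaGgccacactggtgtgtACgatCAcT
In this window Iglc3 differed from Iglc2 at 5 bases and Iglc1 at 19. Over the coding sequence, Iglc2 and Iglc3 were 96.2% identical with a longest shared run of 79 bases, and Ighg2b and Ighg2c 85.6% with a run of 78 bases. Reads of Iglc2 and Iglc3, and some of Ighg2b and Ighg2c, could have been assigned to either gene, so the split within these pairs is uncertain. The other pairs of IgG genes were 73.4 to 75.5% identical.

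The libraries held 6569642 to 11225281 reads recovered from the deposited normalized counts, with a median of 8586877. Elac2 had 124 to 166 normalized counts in WT and 111 to 119 in KO at 10 weeks, and 149.6 to 194 in WT and 98.4 to 151 in KO at 30 weeks. A537T had 158 to 173 and 114 to 189. These are counts over the whole gene, not of the deleted exon. The 9 prostate epithelial marker genes took 0.467 to 4.69% of the counts of a library, lowest in 15AF. Libraries 10AF and 11AF, all of KO at 10 weeks, 4AF, 6AF, 7AF and 9AF carried 1.76 to 10.3% of their counts in 8 seminal vesicle genes, although that organ had been removed. In 12AF, the 30-week WT libraries, 5AF and 8AF these genes took 0.000808% or less, and in 10-week A537T 0.0374 to 0.191%. In KO and A537T at 10 weeks and KO and A537T at 30 weeks, in this order, limma and edgeR called 0% of genes at an adjusted p under 0.05, DESeq2 called 4.74, 0.595, 1.93 and 3.19%, and 19.4, 6.43, 11 and 13.6% reached an unadjusted p under 0.05 with limma.

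Antibody transcripts were scarce at 10 weeks and more abundant at 30 weeks, in each genotype. In RPM, the recovered reads scaled by the total of their library, the sum of the 10 genes in WT was 19.2 to 32.4 at 10 weeks and 76.3 to 121 at 30 weeks. The sum in KO was 19.8 to 30.6 and 98.6 to 119. The sum in A537T was 27.9 to 48.3 and 296 to 1083. The ages do not overlap in any genotype, and at 30 weeks A537T stands apart from WT and KO. The ages were normalized in separate tables, so this is a description across tables without a test.

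**Figure D1:**
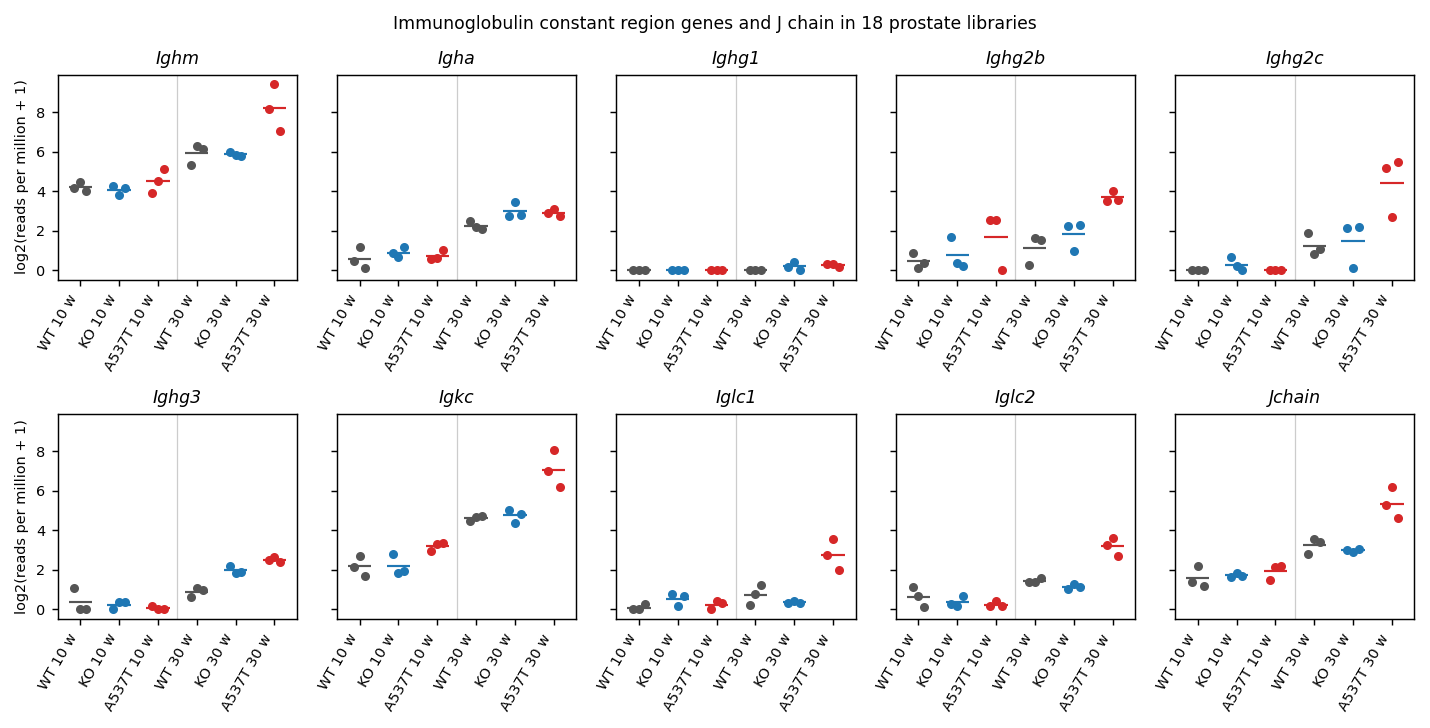
Each panel plots 1 gene on a log axis, as log2(RPM + 1), in 6 groups of 3 libraries, with WT taken from the tables shared with KO. Points are libraries and lines are group means of the plotted values. Ighm ranges from 129 to 687 RPM in A537T at 30 weeks, above the other groups.

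Ighm, the IgM heavy chain, had more reads per kilobase than every other heavy chain member in all 18 libraries. In RPM it was 16.97, 21.3 and 14.97 in WT, 18.02, 13.1 and 16.9 in KO, and 13.8, 22.0 and 33.9 in A537T at 10 weeks. At 30 weeks it was 39.5, 75.7 and 68.4 in WT (1AF to 3AF), 62.5, 56.3 and 54.4 in KO, and 281, 687 and 129 in A537T. WT and KO overlapped at both ages, and the lowest A537T library at 30 weeks was above every other library.

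Igkc, the kappa light chain, led the light chains per kilobase in all 18 libraries. At 10 weeks it had 3.42, 5.57 and 2.27 RPM in WT, 6.01, 2.59 and 2.89 in KO and 6.79, 8.89 and 9.38 in A537T. The 30-week values were 20.9, 24.6 and 25.3 in WT, 31.9, 20.0 and 27.9 in KO and 126, 269 and 71.1 in A537T. Per kilobase of merged exons, light chain over heavy chain signal was 0.600 to 1.39 at 10 weeks and 1.15 to 1.70 at 30 weeks, a description over 9 libraries each.

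Jchain had 1.59, 3.62 and 1.28 RPM in WT, 2.08, 2.59 and 2.28 in KO and 1.79, 3.40 and 3.60 in A537T at 10 weeks. The 30-week values were 6.07, 10.96 and 9.66 in WT, 6.98, 6.50 and 7.37 in KO and 37.7, 71.2 and 23.4 in A537T. Over all 18 libraries there were 8.55 to 19.8 Jchain reads for each 100 Ighm reads, and in A537T at 30 weeks 13.4, 10.4 and 18.1, inside that span.

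At 30 weeks, every one of the 10 genes was higher in all 3 A537T libraries than in all 3 WT libraries, as were 9.18% of all genes tested, while 9.4% were lower without overlap and no member was. This count is part of what chose the genes, and nothing is read from it. The minimum for a fit, an average of 10 normalized counts in the 6 libraries compared, was met by 9 of them, all but Ighg1, and their median log2 fold change was 2.30. The median over all genes was -0.01.

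The heavy chains differed in size of change. Ighm had 2469, 5804 and 1205 normalized counts in A537T against 347, 701 and 599 in WT (log2 fold change 2.29, SE 0.55, by limma on the log2(normalized count + 1) scale). Without library 8AF it was 1.71, and without 9AF 2.84. Igha, the IgA heavy chain, had 56.2, 62.7 and 52.6 in A537T against 40.9, 33.3 and 28.7 in WT (log2 fold change 0.73, SE 0.22). It was the smallest of the 9 fitted changes. Ighg3 had 40.2, 45.3 and 39.4 against 4.81, 10.3 and 8.91 (2.30, SE 0.37). Igha and Ighg3 were close to level over the A537T libraries, in which Ighm spanned 1205 to 5804.

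Among the light chains and Jchain, Igkc had 1104, 2276 and 664 normalized counts in A537T against 184, 228 and 221 in WT (log2 fold change 2.49, SE 0.40). Iglc1, a lambda light chain, had 50.2, 91.6 and 28.5 against 1.60, 6.88 and 11.9 (3.02, SE 0.69). Iglc2 had 76.3, 93.5 and 51.5 against 13.6, 14.9 and 16.8 (2.18, SE 0.29). Library 8AF was highest and 9AF lowest for all 3, as for Ighm. Jchain had 330.5, 602 and 218 against 53.7, 102 and 85.1 (2.16, SE 0.39), in the same order. Without library 8AF the log2 fold change was 2.02 for Igkc and 1.78 for Jchain. Seminal vesicle genes ran in the reverse order, at 7.24, 7.99e-05 and 9.17% of counts in 7AF, 8AF and 9AF. In KO at 30 weeks 5AF, at 7.13e-05%, was instead the lowest library for Ighm, Igkc and Jchain in normalized counts. The part of these transcripts in the values was not tested.

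**Figure D2:**
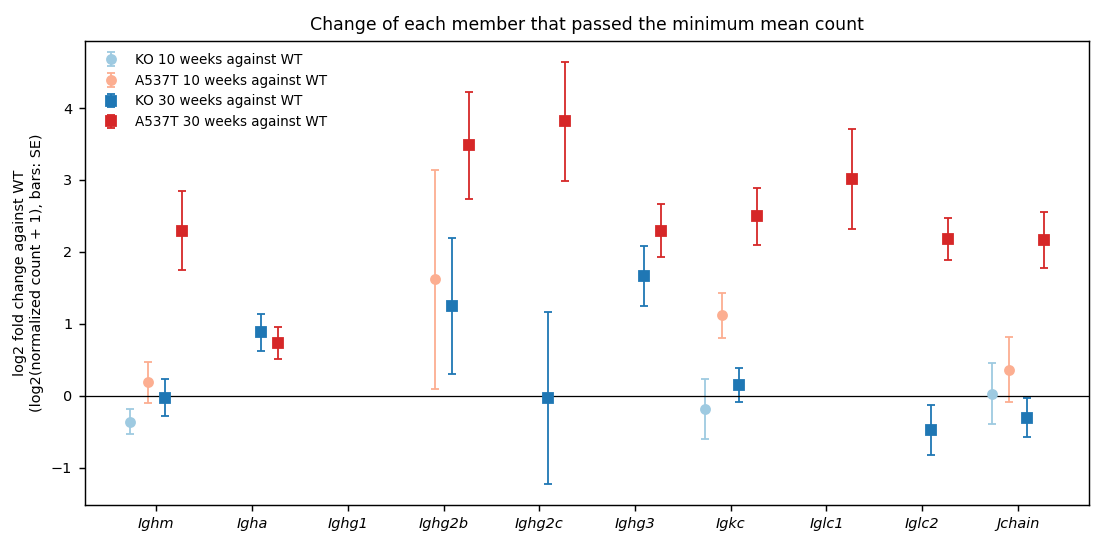
Points are the log2 fold change of each gene against WT on the log2(normalized count + 1) scale in the 4 comparisons, with the standard error as bars. Genes under the minimum mean count are not drawn. All 9 values of A537T at 30 weeks lie between 0.73 and 3.81.

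Among the IgG genes, Ighg2c ran in another order than Ighm across the A537T libraries. Ighg2c, the IgG2c heavy chain of the C57BL lineage, had 304, 46.3 and 399.8 normalized counts in 7AF, 8AF and 9AF against 23.3, 6.88 and 9.90 in WT (log2 fold change 3.81, SE 0.83). Ighg2b had 90.4, 129 and 98.6 against 1.60, 18.4 and 15.8 (3.48, SE 0.74). Thus 8AF, the highest library for Ighm, was the lowest for Ighg2c. Of the IgG reads, Ighg2c took 69.7% of 435 in 7AF, 20.8% of 231 in 8AF and 74.2% of 492 in 9AF, whereas Ighg2b took 20.7, 58.0 and 18.3%. Ighg1 had 2, 2 and 1 reads in A537T and 0 in every WT library, counts too low for a fold.

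**Figure D3:**
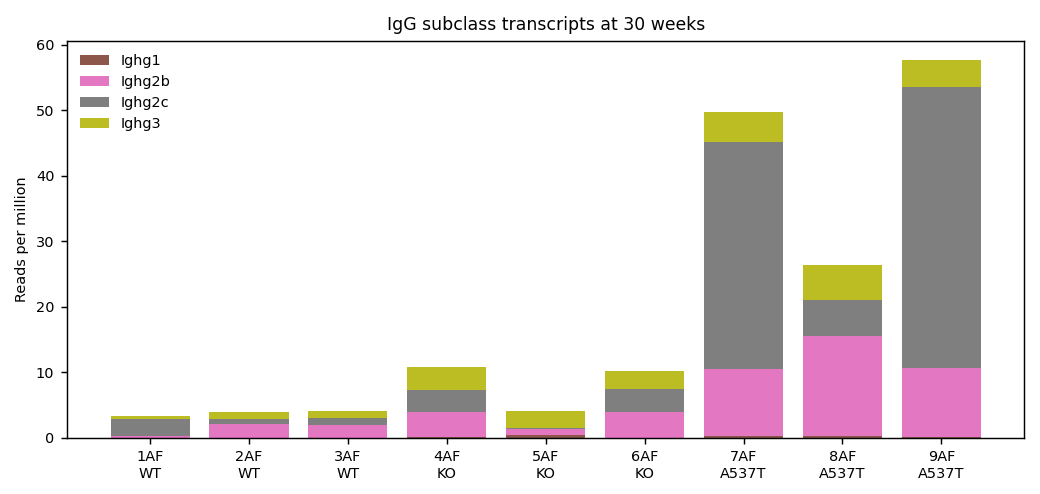
Stacked bars give the RPM of the 4 IgG genes in each library at 30 weeks. Ighg2c fills most of the bar in 7AF and 9AF (34.7 and 42.8 RPM), and Ighg2b in 8AF (15.3).

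At 30 weeks the libraries with high Ighg2c in both mutant lines were those with seminal vesicle transcripts. In KO at 30 weeks Ighg2c had 26, 1 and 29 reads in 4AF, 5AF and 6AF, where seminal vesicle genes took 8.53, 7.13e-05 and 6.32% of counts. In A537T they took 7.24, 7.99e-05 and 9.17% in 7AF, 8AF and 9AF. In WT, where these genes took 0.000335% or less, Ighg2c had 29, 6 and 10 reads in 1AF, 2AF and 3AF. At 10 weeks the KO libraries, at 6.55 to 10.3%, had 5, 1 and 0 Ighg2c reads, and 10AF and 11AF, at 4.64 and 1.76%, had 0. The part of these transcripts in the Ighg2c values was not tested.

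In KO at 30 weeks the members showed no common direction. Of the 8 that passed the minimum, 4 had a positive and 4 a negative log2 fold change, with a median log2 fold change of 0.07. Groups did not overlap for Igha and Ighg3, both higher in KO (7.92% of genes tested were higher without overlap), and for Iglc2, lower in KO (8.41%). None passed an adjusted p under 0.05 with limma, edgeR or DESeq2. The WT libraries here are those of the A537T comparison.

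Ighg3 had 34.4, 21.3 and 25.6 normalized counts in KO against 4.82, 10.4 and 8.91 in WT (log2 fold change 1.67, SE 0.42, limma adjusted p = 0.386). Igha had 54.1, 83.0 and 57.0 against 41.0, 33.4 and 28.7 (0.88, SE 0.25, limma adjusted p = 0.392). Iglc2 had 9.84, 11.7 and 11.6 against 14.5, 14.98 and 17.8 (-0.47, SE 0.35, limma adjusted p = 0.634). The groups stood apart for these 3 genes, and none passed the correction over all genes tested. Iglc3, near-identical to Iglc2, had 3.69, 7.34 and 3.49 in KO and 0, 0 and 2.97 in WT, the opposite order.

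Ighm had 594, 464 and 515 normalized counts in KO against 351, 708 and 603 in WT (log2 fold change -0.03, SE 0.26, limma adjusted p = 0.978). Igkc (0.16, SE 0.24, limma adjusted p = 0.827) and Jchain (-0.30, SE 0.27, limma adjusted p = 0.688) overlapped with WT as well. Ighg2b had 35.7, 8.08 and 37.2 against 1.61, 19.6 and 16.8 (1.24, SE 0.95, limma adjusted p = 0.643). Ighg2c had 32.0, 0.734 and 33.7 against 23.3, 6.91 and 9.90 (-0.03, SE 1.19, limma adjusted p = 0.997). Library 5AF was low for both, and without it Ighg2c had a log2 fold change of 1.40. The log2 fold change of Ighg2b was 0.29 without 1AF and 1.93 without 5AF. Ighg1, at 1, 4 and 0 reads, and Iglc1, at 2, 4 and 2 reads, fell under the minimum.

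At 10 weeks 3 members passed the minimum in KO and 4 in A537T. In KO, Ighm had 134, 107 and 127 normalized counts against 136, 182 and 155 in WT (log2 fold change -0.36, SE 0.18, limma adjusted p = 0.304). It was the only member without overlap, lower in KO, as were 14.3% of all genes tested, while 11.7% were higher. With every library scaled to the same total the groups overlapped. The 8 skeletal muscle genes took 1.196 to 4.27% of counts in the WT libraries and 0.0254 to 0.683% in KO, all 8 with a lower mean and 7 without overlap, and their part in the Ighm value was not tested. Igkc (-0.19, SE 0.41, limma adjusted p = 0.817) and Jchain (0.03, SE 0.42, limma adjusted p = 0.975) overlapped.

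In A537T at 10 weeks, Igkc had 60.6, 77.1 and 73.6 normalized counts against 28.0, 48.4 and 23.4 in WT (log2 fold change 1.12, SE 0.31, limma adjusted p = 0.746). It was the only member higher without overlap, as were 5.58% of all genes tested (6.34% were lower and no member was), and the range with 1 library left out was 0.91 to 1.42. Ighg2b had 42.6, 41.9 and 0 against 7.25, 0.865 and 3.20 (1.62, SE 1.52, limma adjusted p = 0.814). It was high in 16AF and 17AF and had no read in 18AF, where a count of 0 allows up to 3 reads, and its log2 fold change was 3.43 without 18AF and 0.71 without 16AF. Ighm (0.19, SE 0.28, limma adjusted p = 0.890) and Jchain (0.36, SE 0.45, limma adjusted p = 0.863) overlapped with WT. Hemoglobin genes and Alas2, a summed 1295 to 2208 normalized counts in WT, reached 2368 to 4291 in these A537T libraries, and the 8 skeletal muscle genes took 1.17 to 4.19% of counts in WT and 0.419 to 1.28% in A537T. The part of blood and muscle in the Igkc value was not tested.

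The members under the minimum at 10 weeks were near the limit of detection. Igha had 3, 13 and 1 reads in WT, 7, 4 and 8 in KO and 4, 5 and 8 in A537T. Ighg1 had 0 reads in all 9 libraries, Ighg2c had 5 and 1 in 13AF and 14AF and 0 elsewhere, and Iglc1 had 6 reads at most. Differences of these genes were not detectable at this depth.

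IgM made up most of the heavy chain signal in each library, whatever the genotype. As a share of reads per kilobase over the 6 heavy chain genes, IgM was 91.0, 95.7 and 98.2% in WT (10AF to 12AF), 86.0, 92.7 and 93.4% in KO (13AF to 15AF) and 78.5, 85.3 and 97.9% in A537T (16AF to 18AF) at 10 weeks. At 30 weeks it was 84.0, 92.8 and 91.9% in WT, 81.4, 84.7 and 79.4% in KO and 81.3, 96.1 and 63.1% in A537T. The lowest share was that of 9AF, where 1100 of 1640 heavy chain reads were Ighm (67.1%, 95% Wilson interval 64.8 to 69.3% of reads). The highest at 30 weeks was 8AF, with 6021 of 6317 (95.3%, 94.8 to 95.8%). The shares depend on the gene length used. Merged exons cover 1886 bases in Ighm, 2668 in Igha, 2678 in Ighg2b and 1326 in Ighg2c. The shortest forms of these genes cover 1493, 1100, 1114 and 1111 bases. Beside Ighm, Igha and Ighg2b thus count for less, and Ighg2c for more, than they would per shortest form.

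**Figure D4:**
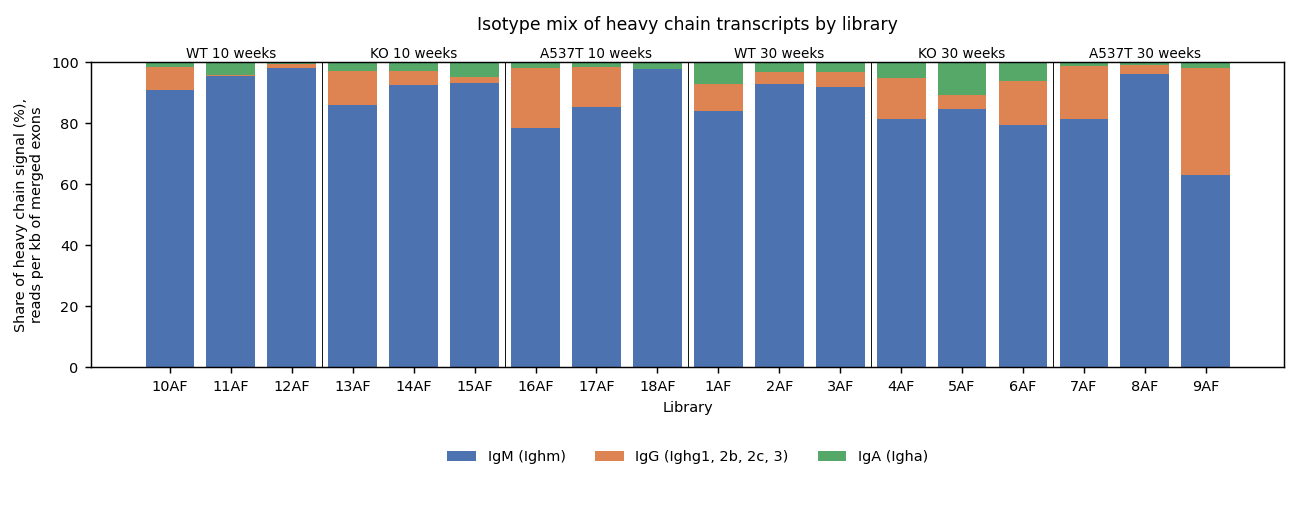
Bars give, for each of the 18 libraries, the shares of IgM, IgG and IgA in percent of heavy chain reads per kilobase of merged exons. IgM fills 63.1% or more of every bar, and the IgG share runs from 0% in 18AF to 35.0% in 9AF. These shares depend on the gene length used.

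The IgG share was 7.65, 0.309 and 1.36% in WT, 11.3, 4.41 and 1.86% in KO and 19.6, 13.2 and 0% in A537T at 10 weeks. The 30-week shares were 9.08, 4.11 and 4.97% in WT, 13.3, 4.54 and 14.4% in KO and 17.4, 3.18 and 35.0% in A537T. No mutant group lay wholly above or wholly below WT. The IgA share at 10 weeks was 1.39, 4.03 and 0.457% in WT, 2.73, 2.88 and 4.76% in KO and 1.91, 1.51 and 2.10% in A537T. The 30-week shares were 6.94, 3.09 and 3.09% in WT, 5.24, 10.7 and 6.21% in KO and 1.31, 0.733 and 1.95% in A537T. The A537T libraries at 30 weeks lay below WT in IgA share while Igha itself was higher, by less than Ighm.

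Shares were compared by exact permutation, 2-sided, in 16 tests within a table, where 3 against 3 cannot give a p under 0.1, and 8 tests over both ages with genotype permuted within each age, where the smallest p is 0.005. In KO over both ages, the IgM share was 86.3% against 92.2% in WT, a difference of -5.98 percentage points (exact permutation p = 0.035, adjusted p = 0.176). The IgA share was 5.42% against 3.17%, a difference of 2.25 points (exact permutation p = 0.08, adjusted p = 0.176). The IgG share was 8.31% against 4.58%, or 3.72 points (exact permutation p = 0.155, adjusted p = 0.207). None passed the correction, and the KO means went the same way at both ages. The IgM difference was -4.24 points at 10 weeks (exact permutation p = 0.3, adjusted p = 0.533) and -7.71 points at 30 weeks (exact permutation p = 0.2, adjusted p = 0.533). The change of the IgM difference between ages was not significant (exact permutation p = 0.56, adjusted p = 0.806). At 30 weeks seminal vesicle genes took 8.53, 7.13e-05 and 6.32% of counts in 4AF, 5AF and 6AF. The IgG share there was 13.3, 4.54 and 14.4%. At 10 weeks these genes took 9.47, 6.55 and 10.3% in 13AF, 14AF and 15AF, with IgG shares of 11.3, 4.41 and 1.86%. WT libraries 10AF and 11AF were at 4.64 and 1.76%, with IgG shares of 7.65 and 0.309%. The part of seminal vesicle transcripts in the KO differences was not tested.

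In A537T at 10 weeks the IgM share was 87.2% against 94.1% (exact permutation p = 0.3, adjusted p = 0.533), the IgG share 10.9% against 3.90% (exact permutation p = 0.4, adjusted p = 0.582) and the IgA share 1.84% against 1.97% (exact permutation p = 1). At 30 weeks, given as a description, the mean IgM share was 80.1 ± 16.5% against 89.6 ± 4.95% in WT, the IgG share 18.5 ± 15.9% against 6.02 ± 2.73% and the IgA share 1.33 ± 0.606% against 4.41 ± 2.23% (SD, n = 3 each). The IgM difference was -9.42 points with all libraries, -0.88 without 9AF and -17.4 without 8AF. The IgG difference was 12.5 points with all libraries, 4.26 without 9AF and 20.2 without 8AF. At 10 weeks the IgM difference was -6.90 points, -2.54 without 16AF and -12.2 without 18AF. The IgG difference was 7.03, 2.71 and 12.5 points in the same order. At 30 weeks seminal vesicle genes took 7.24, 7.99e-05 and 9.17% of counts in 7AF, 8AF and 9AF. The IgG share there was 17.4, 3.18 and 35.0%. At 10 weeks these genes took 0.191, 0.136 and 0.0374% in 16AF, 17AF and 18AF, with IgG shares of 19.6, 13.2 and 0%. The part of seminal vesicle transcripts in the A537T differences was not tested.

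Kappa outweighed lambda in all libraries. Iglc1 and Iglc2 made up 23.7, 8.38 and 12.3% of light chain reads per kilobase in WT and 14.4, 10.2 and 30.1% in KO at 10 weeks, on only 20 to 63 light chain reads a library. In A537T at 10 weeks the share was 1.502, 7.03 and 4.22% against 26.2, 9.80 and 12.7% in the WT libraries of that table, 3 of 3 below WT (exact permutation p = 0.1, the smallest possible, adjusted p = 0.533). At 30 weeks it was 7.23, 8.40 and 11.7% in WT, 3.63, 7.67 and 4.64% in KO (exact permutation p = 0.2, adjusted p = 0.533) and 10.2, 7.65 and 10.5% in A537T. Counting noise is large at 10 weeks: the 1 lambda read among 58 in 16AF has a 95% Wilson interval of 0.305 to 9.14% of reads.

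The variable segments, which code for the antigen-binding ends of the same chains, had their own rows. In A537T at 30 weeks, 185 heavy chain variable genes held 475, 888 and 266 reads, against 67, 112 and 77 in WT, and 160 kappa variable genes 562, 1323 and 325 against 96, 112 and 102. Reads fell on 59, 57 and 39 heavy variable genes in A537T and on 22, 38 and 33 in WT. Reads thus fell on many segments in each of these 30-week libraries. How evenly they were spread over the segments was not tested, and the number of segments seen depends on the number of reads.

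Other constant genes were low, apart from Iglc3 in A537T at 30 weeks, where it passed the minimum. It had 17.1, 26.0 and 29.6 normalized counts in 7AF, 8AF and 9AF against 0, 0 and 2.97 in WT. It was thus highest in 9AF, unlike Igkc, Iglc1 and Iglc2, and it is not part of the lambda share. Ighd, which mature naive B cells express beside Ighm, had 8.61, 13.2 and 12.8 normalized counts in KO, 6.03, 15.4 and 4.38 in A537T and 3.22, 4.61 and 6.93 in WT at 30 weeks. Ighe and Iglc4 had 0 reads in all 18 libraries.

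Markers of the cells that make antibodies were near the limit of detection. Of 15 B cell genes, 3 passed the minimum in A537T at 30 weeks, where the list summed to 162 to 216 normalized counts against 65.0 to 81.4 in WT. Of its defining markers, Cd79a had 11 reads at most and Ms4a1 19 in A537T. In KO at 30 weeks the list summed to 216 to 294 against 57.1 to 78.3 in WT, while Ighm overlapped with WT. Most of this sum in 4AF and 6AF was Cr2, complement receptor 2, at 187 and 178 normalized counts, which was 11.7 in 5AF, and in A537T Cr2 was 108, 11.6 and 137 in 7AF, 8AF and 9AF. Cr2 was thus high in the libraries with seminal vesicle transcripts, a relation that was not tested. Without Cr2 the list summed to 98.9 to 204 in KO against 57.1 to 74.9 in WT. In A537T it then summed to 78.9 to 150.4 against 65.0 to 79.1 in WT, so these groups overlapped.

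Of 15 plasma cell genes, 12 passed the minimum in A537T at 30 weeks, with a median log2 fold change of 0.12. Of these, 7 had a positive and 5 a negative log2 fold change. Some genes of the list serve secretion in general, and Xbp1, a transcription factor of secretory cells, had 1509 to 1601 normalized counts in A537T and 1336 to 1636 in WT. Mzb1, which helps assemble IgM, had 13.1, 22.2 and 12.0 normalized counts in A537T against 2.41, 0 and 3.96 in WT, and Pou2af1, a B lineage coactivator, 15.1, 33.7 and 12.0 against 4.01, 8.03 and 0. Both peaked in 8AF, as Ighm did, but Pou2af1 was chosen after its values were seen. The members were selected through plasma and B cell genes, so nothing is read from this order. Derl3, an endoplasmic reticulum protein, had 246, 530.2 and 170 against 395 to 539, and Tnfrsf17, the BCMA receptor of plasma cells, had 3 reads at most.

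Pigr, the receptor that exports polymeric IgA and IgM, had 11229, 16779 and 9275 normalized counts in A537T against 23533, 17618 and 19876 in WT at 30 weeks (log2 fold change -0.75, SE 0.23). In KO it had 5029, 25255 and 9406 in 4AF, 5AF and 6AF. It was lowest in the libraries with seminal vesicle transcripts in both lines, and their part in the value was not tested. Fcgrt, the neonatal Fc receptor that binds IgG, had a log2 fold change of 0.73 (SE 0.18) in A537T and 0.41 (SE 0.17, limma adjusted p = 0.456) in KO at 30 weeks. The Fc receptor genes tested did not share its direction: 5 were higher and 2 lower in A537T, and 4 higher and 3 lower in KO. Fcamr, another of them, had a log2 fold change of -0.81 (SE 0.35, limma adjusted p = 0.456) in KO. Cxcl13, which attracts B cells, had 1.41 (SE 0.39) in A537T and -0.37 (SE 0.42, limma adjusted p = 0.760) in KO. In A537T at 30 weeks 10 of 17 genes of the mucosal IgA list, 7 of 8 Fc receptors and 2 of 8 lymphoid organisers passed the minimum, and none of these passed an adjusted p under 0.05 with limma, which called 0% of all genes.

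Macrophage markers were higher in A537T at 30 weeks. In KO, where the members showed no common direction, their median change was smaller and their sums overlapped with WT. These sums were 1139, 2316 and 1419 normalized counts in 4AF, 5AF and 6AF against 972, 1284 and 1086 in WT. In KO at 30 weeks 7 of the 9 genes had a positive log2 fold change and 2 a negative one, with a median of 0.48. Of these genes 3 were higher without overlap, as were 7.92% of all genes tested. The 9 macrophage genes summed to 2119, 3221 and 1638 normalized counts in A537T at 30 weeks against 981, 1294 and 1094 in WT. All 9 were higher in mean, and 6 were higher without overlap, as were 9.18% of all genes tested. Their median log2 fold change was 1.01, against -0.01 over all genes. Lyz2, lysozyme, had a log2 fold change of 1.39 (SE 0.34), and its groups did not overlap. Library 8AF was highest and 9AF lowest of the 3, as for Ighm, and the reverse of their seminal vesicle transcripts, a relation that was not tested. Among KO libraries at 30 weeks, 5AF had the highest macrophage sum, 2316, and the lowest Ighm in normalized counts. In RPM, Ighm was lowest in 6AF (54.4, against 56.3 in 5AF). The 12 T cell genes summed to 90.9 to 113 in A537T and 52.8 to 90.6 in WT, and the 5 blood genes overlapped (666 to 867 normalized counts against 505 to 984). The part of these cells in the immunoglobulin values was not tested.

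The genes outside the immunoglobulin loci whose levels were most like the summed members over 18 libraries, among 14063 genes, were Trim30d (Pearson r = 0.83), Gm37321 (0.83), H2-K1 (0.81), Slfn2 (0.81), Hacd3 (0.78), Scgb2b17 (0.78), Gm9899 (0.78), Rnf213 (0.78), Oas1a (0.78) and Slc25a5 (0.78). The points share their age and genotype groups. Without the 3 A537T libraries at 30 weeks, r was 0.51 for Trim30d, 0.79 for H2-K1, 0.50 for Slfn2 and 0.91 for Scgb2b17 over 15 libraries. H2-K1, a class I histocompatibility gene, had 337 to 346 RPM in A537T at 30 weeks and 157 to 389 in the other libraries, whereas Trim30d had 5.27 to 10.7 against 2.58 to 4.94.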

How the data were processed

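The authors deposited 4 tables of 6 libraries each, whose values (unit: signal) are counts per gene that DESeq2 had scaled by 1 size factor a library. The authors trimmed reads, aligned them with STAR 2.7.3a to GRCm38 and quantified them with Salmon. Library columns carry no replicate numbers and were assigned to groups through the mean counts of each table and the libraries shared by both tables of an age. The log2 fold changes and p-values, as deposited by the authors in 4 further tables, were not used.

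Whole reads were recovered (at least 99.99% of values within 0.05 of a whole multiple). For 4 columns with a size factor near 1 this cannot be checked. Reads of a WT library can differ between its 2 tables. Ighg3 in 10AF had 9 reads in the table shared with KO and 14 in that shared with A537T. The IgG share of 10AF was 7.65 and 9.99% in them. Shares of WT by library are those of the tables shared with KO unless stated. Each mutant group was compared with WT of its table with limma 3.58.1 in R 4.3.3 on log2(normalized count + 1), over genes with a mean of at least 10, with Benjamini-Hochberg adjustment. edgeR 4.0.16 and DESeq2 1.42.0 on recovered reads were alternatives, and the fits were tested on simulated data. Shares used reads per kilobase of merged exons of GENCODE M21. P-values measure the spread between 3 mice a group. Wilson intervals (95%) cover counting error only. The members and gene lists were chosen with earlier results of these data known. Genes named are the members, related constant genes, the 3 most abundant of each list with 8 fixed markers, and the 10 most alike. Pou2af1 was chosen after its values were seen. Some of the fixed markers are not reported here. Python 3.11.15 with pandas 2.3.3 and scipy 1.17.1 was used.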

Additional observations from a re-analysis of the deposited data

Results flagged for a closer look

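Iglc2 lay on opposite sides of WT in the 2 mutant lines at 30 weeks. All 3 KO libraries, with 8 to 16 reads each, were below all 3 WT libraries (log2 fold change -0.47, SE 0.35, limma adjusted p = 0.634). All 3 A537T libraries were above them, with a log2 fold change of 2.18. The comparisons share their WT libraries, the difference between the lines was not tested, and reads of Iglc2 and Iglc3 may have been exchanged. Iglc3 had 3.69, 7.34 and 3.49 normalized counts in KO and 0, 0 and 2.97 in WT. A fall of Iglc2 in KO is therefore not established.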

How the results depend on the processing

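No paired analysis was possible because the columns carry no replicate numbers. No member passed an adjusted p under 0.05 in KO at either age or in A537T at 10 weeks under any alternative, edgeR and DESeq2 included. The log2 fold change of a member reversed in 7 of 37 values in KO at 10 weeks, 1 of 49 in A537T at 10 weeks, 9 of 98 in KO at 30 weeks and 0 of 112 in A537T at 30 weeks. Depth limits the 10-week values, where most members had under 20 reads a library.

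Over all genes, limma called 0 and DESeq2 715, 90, 285 and 472 in KO and A537T at 10 weeks and KO and A537T at 30 weeks, where unadjusted p under 0.05 was reached by 2930, 973, 1616 and 2016 genes and edgeR called 0. Without a mean trend at 10 weeks the calls were 1 (KO) and 2 (A537T), and with a minimum of 1 they were 2 (A537T). With 1 library left out they ranged from 0 to 2886 (KO at 10 weeks, highest without 10AF), 0 to 50 (A537T at 10 weeks, without 10AF), 0 to 944 (KO at 30 weeks, without 5AF) and 0 to 1224 (A537T at 30 weeks, without 8AF).

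Scaling to the same total moved the median of all genes to 0.20 in KO and 0.15 in A537T at 10 weeks, with 68.1 and 68.7% of genes higher against 49.4 and 51.5%. Under it Igkc in KO at 10 weeks had 0.019, relative to that shift still lower, and 0 members were lower without overlap. Jchain in KO at 10 weeks had -0.0868 with edgeR and -0.0852 with DESeq2. Ighg2c in KO at 30 weeks had 0.27 with pseudocount 8, 0.67 with edgeR and 0.72 with DESeq2. The lambda difference in KO over both ages became 0.0847 points with Iglc3 added. The B cell list in KO at 10 weeks, without Cr2, had a median of -0.21. The causes were not tested.

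With 1 library left out, log2 fold changes ranged from -0.53 to 0.11 for Igkc and -0.18 to 0.42 for Jchain in KO at 10 weeks, from -0.075 to 0.48 for Ighm in A537T at 10 weeks, and from -0.32 to 0.18 for Ighm, -0.76 to 1.40 for Ighg2c and -0.025 to 0.42 for Igkc in KO at 30 weeks. Members without overlap ranged at 10 weeks from 0 to 2 higher and 1 to 2 lower (KO) and from 1 to 3 higher and 0 to 1 lower (A537T), and from 2 to 5 higher and 1 to 4 lower in KO at 30 weeks. Such counts can only stay level or grow when a library is left out. The shares of all genes were then 14.1 to 26.8% higher and 16.1 to 29.2% lower (KO) and 8.47 to 19.5% and 8.94 to 19.9% (A537T) at 10 weeks, and 10.4 to 21.6% and 10.95 to 21.6% in KO at 30 weeks. Differences in IgG share ranged from 0.0274 to 5.02 points in KO at 10 weeks and 2.88 to 7.81 at 30 weeks, and in IgM share from -6.23 to -1.89 and -10.5 to -6.10. The lambda difference ranged from -2.47 to 7.90 points in KO at 10 weeks, -0.49 to 1.76 in A537T at 30 weeks and -3.13 to 2.06 in KO over both ages, and the IgA difference in A537T at 10 weeks from -0.89 to 0.92. List medians ranged from -0.23 to 0.15 (plasma cell, KO at 30 weeks) and in A537T at 30 weeks from -0.012 to 0.98 (T cell), 0.22 to 0.80 (Fc receptor) and 0.74 to 2.60 (B cell). The overlap counts with their shares over all genes, shares per shortest form and the list without Cr2 were chosen after seeing the data.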
